A study of Mus musculus with 7 samples.

Results

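The genes described here are 10 members of the fibroblast growth factor (FGF) pathway: the ligands Fgf4, Fgf5, Fgf2, Fgf7 and Fgf10, the receptors Fgfr1 and Fgfr2, and the feedback inhibitors Spry2, Spry4 and Dusp6. They were taken by gene symbol from a table of 55484 genes, and each symbol was found. Of the 10, 9 had enough counts to be tested, among 16580 tested genes in all, and Fgf5 did not. The libraries came from mouse embryonic fibroblasts (MEFs, 4 libraries) and mouse embryonic stem cells (mESCs, 3 libraries), with no genetic change or treatment named. The study used them in an ATAC-seq benchmark, in which transcript levels served to rank transcription factors that differ between pluripotent cells and fibroblasts. The study gives a C57/Bl6 background for its MEFs and mESCs where it describes the chromatin libraries, and its RNA methods name no strain. Its chromatin samples were sorted as THY1+ fibroblasts and THY1-/SSEA1+/EPCAM+ mESCs, whereas for the RNA libraries, which were already in the laboratory, the extraction text speaks of blood stem cells of young and aged mice. The culture medium, the embryos or line behind each library, and the sex of the cells are not given in the sources used here. The study's legends call its RNA data biological replicates, with fewer per cell type than the MEF libraries in the table, and do not say which were used. Neither they nor the labels tie a library to a separate culture or animal, so every p-value below measures only the spread between these libraries, which may be technical. Libraries are named MEF a to d and mESC a to c in the order of the table, and the order carries no meaning.

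Most FGFs are secreted proteins that bind receptor tyrosine kinases at the cell surface together with heparan sulfate. The active receptor recruits the adaptor FRS2 and switches on the RAS-ERK cascade, and ERK in turn induces Sprouty proteins and the phosphatase DUSP6, which dampen the same signal. In pluripotent cells, FGF4 made by the cells themselves drives ERK and the exit from the naive state, and in connective tissue, fibroblasts secrete FGF7 and FGF10 toward neighbouring epithelium.

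Among the 10 genes, the ligands differed between the cell types in both directions, the receptors were lower in mESCs, and the feedback inhibitors did not pass the test. Fgf4 was higher in mESCs, and Fgf2, Fgf7, Fgfr1 and Fgfr2 were lower (edgeR quasi-likelihood test, Benjamini-Hochberg adjusted p under 0.05 over all tested genes). Fgf10, Spry2, Spry4 and Dusp6 did not pass. Of all tested genes, 47.9% passed this threshold, 22.8% as higher and 25.0% as lower in mESCs, so 5 of 9 is close to the background of this comparison. For 5 of the genes, no mESC library fell within the MEF range, against 52.1% of all tested genes. Fgf4 passed the filter on low counts only through the mESC libraries, and Fgf2 and Fgf7 only through the MEF libraries, so these 3 had to differ in order to be tested with so few counts on the other side.

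The libraries held 6528643 to 11441278 counts, and 3 counts, taken as the floor of a library, correspond to between 0.288 and 0.477 CPM (counts scaled to a common library size by edgeR's TMM method, CPM). All 10 pluripotency markers on the list passed as higher in mESCs and all 10 fibroblast markers as lower, as the cell type labels have it. Summed, the pluripotency markers had 111 to 156 CPM in MEFs and 3911 to 4008 in mESCs, and the fibroblast markers 23690 to 40750 and 169 to 194, with no marker of either list at 0 in all libraries of a cell type. Blood markers summed to between 2.61 and 13.0 CPM over 8 genes in all 7 libraries. The level in the other cell type had a median of 0.653% for the pluripotency markers (MEF level relative to mESC, range 0.395% to 14.1%) and 0.856% for the fibroblast markers (mESC relative to MEF, range 0.464% to 17.4%). The libraries of a cell type did not all resemble each other. The Y-linked genes Ddx3y, Eif2s3y and Kdm5d together had 2.11 and 0.610 CPM in MEF a and b, 90.6 and 88.4 in MEF c and d, 1.73 and 1.82 in mESC a and b, and 35.9 in mESC c. Most of the mESC c value was Eif2s3y, with 27.7 CPM. Uty, also Y-linked, did not show this split among the MEFs. It had 13.6, 12.2, 9.95 and 16.2 CPM in MEF a to d and 8.24, 7.84 and 16.2 in mESC a to c. Scaling by library size alone moves the fitted log2 fold changes up by a median of 0.281 and turns the balance of calls to 5180 higher and 3345 lower, from 3785 and 4153.

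**Figure D1:**
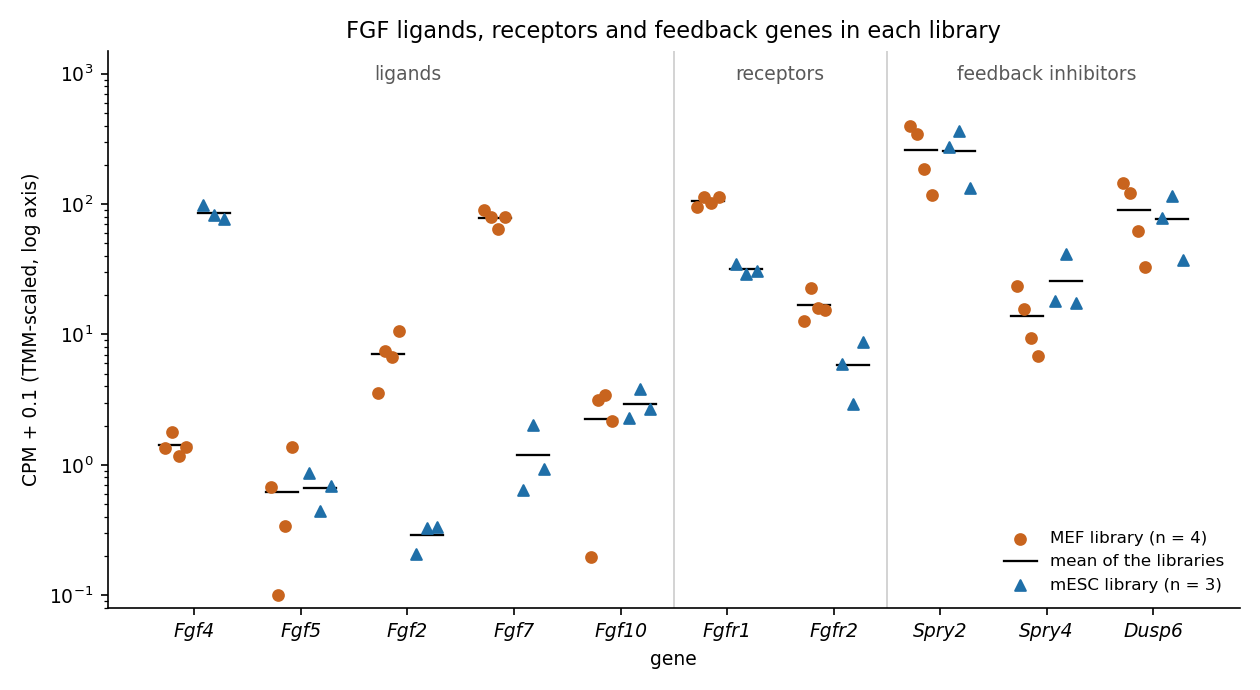
Level of each of the 10 genes in each library, as TMM-scaled CPM plus 0.1, on a log axis. Circles are the 4 MEF libraries, triangles the 3 mESC libraries, and black bars the mean of the libraries. Fgf4 and Fgf7 stand on opposite sides, Fgfr1 and Fgfr2 are lower in mESCs, and the feedback genes of the cell types overlap.

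Promoter sequences are shown for the leading ligand of each cell type, Fgf4 and Fgf7, and for Spry2 and Dusp6, the 2 feedback genes whose counts moved together across libraries. Each is the 250 bases before the RefSeq start on GRCm38.p6, written from 5′ to 3′ on the strand of the gene, with GGGCGG or its reverse complement, the SP/KLF box, in capitals.
Fgf4 (chr7:144861136-144861385, plus strand): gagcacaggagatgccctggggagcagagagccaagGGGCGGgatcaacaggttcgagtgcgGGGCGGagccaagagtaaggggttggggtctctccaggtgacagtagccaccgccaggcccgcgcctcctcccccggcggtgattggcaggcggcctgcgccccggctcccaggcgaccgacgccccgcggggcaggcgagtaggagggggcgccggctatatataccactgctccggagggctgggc
Fgf7 (chr2:126034408-126034657, plus strand): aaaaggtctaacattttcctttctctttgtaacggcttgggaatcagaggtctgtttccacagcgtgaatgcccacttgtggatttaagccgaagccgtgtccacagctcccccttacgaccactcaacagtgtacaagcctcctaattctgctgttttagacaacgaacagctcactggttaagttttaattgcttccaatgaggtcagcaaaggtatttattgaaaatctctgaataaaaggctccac
Spry2 (chr14:105896820-105897069, minus strand): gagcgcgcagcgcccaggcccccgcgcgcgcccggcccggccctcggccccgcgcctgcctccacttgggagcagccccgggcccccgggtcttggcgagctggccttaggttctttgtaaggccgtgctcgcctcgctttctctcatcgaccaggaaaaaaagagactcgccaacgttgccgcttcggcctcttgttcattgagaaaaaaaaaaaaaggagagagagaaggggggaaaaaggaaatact
Dusp6 (chr10:99262981-99263230, plus strand): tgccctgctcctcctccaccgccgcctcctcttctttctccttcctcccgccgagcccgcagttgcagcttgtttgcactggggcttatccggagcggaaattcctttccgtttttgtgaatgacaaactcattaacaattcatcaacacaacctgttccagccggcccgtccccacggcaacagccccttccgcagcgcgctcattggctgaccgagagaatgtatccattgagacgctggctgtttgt

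These windows differ in base composition: G and C make up 71.2% of the bases for Fgf4, 43.6% for Fgf7, 62.4% for Spry2 and 56.4% for Dusp6, with a median of 52.4% (quartiles 45.2% and 61.2%) over 32851 RefSeq promoters. Windows were matched for 8 of the 10 genes. The SP/KLF box was found on either strand in 4 of the 8 (Fgf4, Fgf5, Fgf2 and Fgf10), against 32.7% of all promoters, and Fgf4 held 2 matches. TATAAA (a form of the TATA box), ATGCAAAT (the octamer), TGANTCA (AP-1), TGACGTCA (CRE), CACGTG (the E-box) and CCGGAAG (ETS) were found in 0 of the 8 windows. They occur in 12.4%, 1.60%, 6.75%, 1.55%, 6.02% and 6.91% of all promoters. These matches describe letters in a window and no binding was measured. Only the strings as written and their reverse complements were searched, so variants were missed. The Fgf4 window, for example, holds tatatata near its 3′ end.

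Fgf4, the FGF that pluripotent cells secrete, was the dominant ligand of the mESCs. The gene lies on chromosome 7 (144847367 to 144865243, plus strand, GRCm38, GENCODE M21). It had 910, 724 and 655 counts in mESC a to c and 13, 11, 9 and 8 in MEF a to d, which is 86.1 ± 11.2 CPM (SD, n = 3) against 1.32 ± 0.254 CPM (SD, n = 4). Every mESC library was above every MEF library, with a narrow range in each cell type. The fitted log2 fold change was 6.03 (standard error 0.225, edgeR adjusted p = 2.24e-08), or 65.2-fold, and the exact two-sided permutation test over the 35 assignments of 4 and 3 libraries gave p = 0.0286, the smallest it can give. The MEF counts were above the floor in every library and amounted to 1.502% of the mESC level. The pluripotency markers' median of 0.653% in MEFs stands beside this value, and the source of these counts was not tested. In these bulk libraries, fewer cells of a type and less RNA per cell cannot be told apart.

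Fgf7, or keratinocyte growth factor, which fibroblasts make and epithelial cells read through FGFR2, showed the mirror image. It is annotated on chromosome 2 (126034658 to 126091185, plus strand). The MEF libraries held 936, 525, 532 and 500 counts and the mESC libraries 5, 17 and 7, which is 78.3 ± 10.8 CPM (SD, n = 4) against 1.1 ± 0.734 CPM (SD, n = 3). The cell types were far apart, and mESC b was the highest of the mESC libraries. The log2 fold change was -6.14 (standard error 0.364, edgeR adjusted p = 3.85e-07), a level 70.5-fold higher in MEFs. What was counted in mESCs amounted to 1.39% of the MEF level, beside a median of 0.856% for the fibroblast markers in the same libraries, and whether fibroblasts in the mESC cultures gave these counts was not tested.

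Fgf2, or basic FGF, a ligand that fibroblasts keep in their matrix and that is added to cultures of other pluripotent cells, was a ligand of the MEFs with few counts. It had 36, 48, 55 and 66 counts in MEF a to d and 1, 2 and 2 in mESC a to c, none of the latter above the floor. Pooled over libraries, the MEF level was 34.4 times that of mESCs, with an exact 95% counting interval of 14.5 to 107. The difference passed the test (edgeR adjusted p = 7.21e-05), and MEF a, with 3.45 CPM, was the lowest of the MEF libraries, MEF d with 10.5 CPM the highest. The gene lies on chromosome 3 (37348346 to 37410108, plus strand), and 640 of its exonic bases overlap Nudt6 on the opposite strand, a gene that had at most 5 counts in any library. Of the 50-base words of its transcripts, 10.9% also occur in 2 other genes, and reads there may be left out of the Fgf2 counts or shared with those genes.

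Fgf5, which marks the epiblast once it leaves the naive state, was near the floor in both cell types. It had 7, 3 and 5 counts in the mESC libraries and 6, 0, 2 and 8 in the MEF libraries, so the ranges overlapped and no fold change was fitted. Pooled over libraries, the mESC level was 1.12 times the MEF level, with a counting interval of 0.515 to 2.42. The 5 other markers of the early post-implantation epiblast were mixed. Otx2 had 92, 182 and 177 counts in mESC a to c and Dnmt3b 603, 563 and 718, and both were higher than in MEFs. Sox3 had 6, 18 and 0 and was not tested, and Pou3f1 and Lef1 did not pass (edgeR adjusted p = 0.640 and 0.456). Within the mESC libraries, Fgf5 had 0.00414 to 0.00769 of the counts of Fgf4. Fgf5 is on chromosome 5 (98254184 to 98277030, plus strand).

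Fgf10, a second ligand of mesenchyme that acts on epithelial FGFR2, was low in both cell types and did not separate them. Its counts were 20, 33 and 22 in mESC a to c, and 20, 28 and 13 in MEF b to d, whereas MEF a had 1. Between the cell types the log2 fold change was 0.42 (standard error 0.76, edgeR adjusted p = 0.687), and it was -0.0048 without MEF a, 0.17 without mESC b and 0.75 without MEF c. Between 2.17 and 3.75 CPM was measured in mESCs, with 2.07 to 3.36 CPM in MEF b to d. The ratio of Fgf10 to Fgf7 within a library, which does not depend on scaling, was at most 0.0526 in the MEF libraries and between 1.94 and 4.0 in mESCs, where both genes had few counts. The gene is on chromosome 13 (118669791 to 118792115, plus strand), and its antisense neighbour Gm16263 had no count in any library.

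The sum over all 22 genes listed as FGF ligands was similar in the cell types although its make-up was not. It ran from 98.7 to 124 CPM in MEFs and from 97.0 to 125 CPM in mESCs. The list takes in Fgf11, Fgf12, Fgf13 and Fgf14, FGF relatives that stay inside the cell. Among these, Fgf13 in MEFs had the highest mean share, 2.6%. Fgf4 made up 78.1% ± 2.25 (SD, n = 3) of the ligand counts in mESCs and 1.17% ± 0.206 (SD, n = 4) in MEFs (exact permutation test, two-sided, p = 0.0286). Fgf7 made up 69.6% ± 6.84 in MEFs and 1.02% ± 0.685 in mESCs (same test, permutation p = 0.0286). Fgf2 took 3.03% to 8.48% of the ligand counts in MEFs. The libraries were primed at the poly(A) tail, so counts need not scale with transcript length, and shares were also computed per kb of exon. In all, 26 shares of ligands and receptors were compared. On that scale Fgf4 held 72.9% in mESCs and Fgf7 62.6% in MEFs, both as means, and they led there as well.

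**Figure D2:**
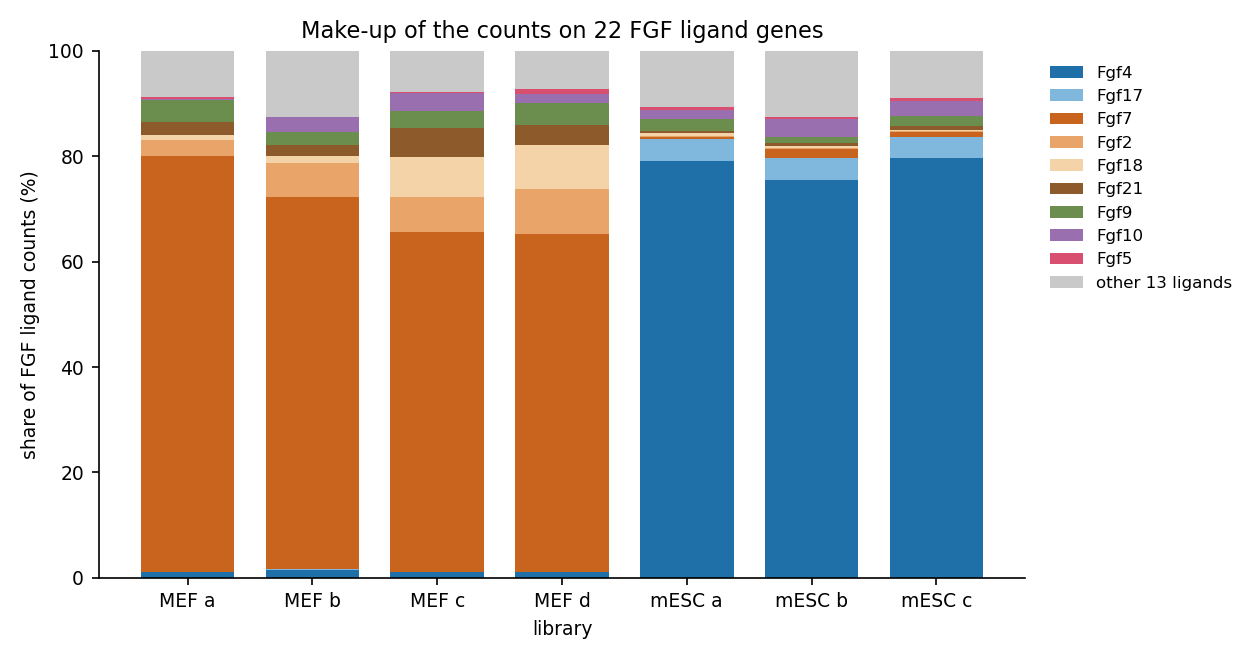
Share of each gene in the counts on 22 genes listed as FGF ligands, in percent, for each library (stacked bars). Fgf7 takes the largest share in the 4 MEF libraries, between 64.3% and 78.9%, and Fgf4 in the 3 mESC libraries, between 75.5% and 79.7%.

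Of the other 17 genes listed as FGF ligands, 7 had enough counts to be tested. In mESCs 1 was higher and 2 were lower, a share close to the 47.9% called among all genes. The median log2 fold change of the 7 was -0.99, beside 0.037 over all tested genes. Of the 7, 3 passed the filter only through the MEF libraries, among them Fgf18 and Fgf21. Another 2 passed only through the mESC libraries, among them Fgf17. Each of the called genes, Fgf17, Fgf18 and Fgf21, could thus be tested only because of its counts in 1 cell type. Fgf17, a close relative of Fgf8, was the second ligand of mESCs by its share of the counts and per kb, with 49, 39 and 33 counts against 1, 1, 0 and 0 in MEFs. Pooled over libraries its level in mESCs was 72.2 times that in MEFs, with a counting interval of 19.6 to 603, and it held 4.11% ± 0.126 (SD, n = 3) of the mESC ligand counts. Fgf21, an endocrine ligand, had 30, 15, 46 and 30 counts in MEFs and 5 to 6 in mESCs (log2 fold change -2.56, edgeR adjusted p = 0.00266). Its call was lost in MEF a, MEF b, mESC a and mESC b alone (-2.07, edgeR adjusted p = 0.0511). Fgf18, a ligand of the developing skeleton, had 62 and 65 counts in MEF c and d but 11 in each of MEF a and b, and 7, 3 and 1 in mESCs (log2 fold change -3.58, edgeR adjusted p = 0.00973). The MEF libraries rich in Fgf18 were those rich in Ddx3y, Eif2s3y and Kdm5d, and what sets them apart was not tested. Without MEF b, MEF c or MEF d, Fgf18 had too few counts to be tested. Fgf8, whose ranges overlapped, had 26, 7 and 4 counts in mESCs and 6, 12, 0 and 0 in MEFs.

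Fgfr1, the main FGF receptor of mesenchyme and of pluripotent cells, was the most abundant receptor in both cell types and was lower in mESCs. It had 994, 737, 854 and 717 counts in MEF a to d and 321, 257 and 260 in mESC a to c, or 106 ± 8.78 CPM (SD, n = 4) against 31.6 ± 2.90 CPM (SD, n = 3). All MEF libraries were above all mESC libraries, and within a cell type the highest library was at most 1.196 times the lowest. The log2 fold change was -1.75 (standard error 0.158, edgeR adjusted p = 7.68e-06), or 3.36-fold higher in MEFs. In the MEF c, MEF d and mESC c libraries alone it was -1.83, and in the other 4 it was -1.71. Fgfr1 lies on chromosome 8 (25513654 to 25575718, plus strand), and the antisense gene Gm16159, which overlaps 164 of its exonic bases, had at most 2 counts.

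Fgfr2, which as the b isoform reads FGF7 and FGF10 in epithelium and which in the early embryo is a receptor of the primitive endoderm, was the less abundant receptor. Its counts were 132, 148, 133 and 96 in the MEF libraries and 54, 25 and 73 in the mESC libraries, or 16.6 ± 4.21 CPM (SD, n = 4) against 5.77 ± 2.89 CPM (SD, n = 3). The groups did not overlap, but mESC c with 8.61 CPM came near MEF a with 12.7 CPM. The log2 fold change of -1.52 (standard error 0.384, edgeR adjusted p = 0.00737) did not pass in a fit to MEF c, MEF d and mESC c alone, where it was -0.87 (edgeR adjusted p = 0.152). Fgfr2 is annotated on chromosome 7 (130162451 to 133123350, minus strand), a span that takes in exons shared with Ctbp2 on the same strand over 314 bases. Ctbp2 had 917 to 1237 counts in mESCs and 179 to 424 in MEFs, and reads of the shared bases cannot be assigned to either gene. Isoforms of the receptors were not told apart by these gene counts.

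The balance between the 2 receptors showed no difference larger than its spread. The log2 ratio of Fgfr2 to Fgfr1 within a library was -2.69 ± 0.277 in MEFs (SD, n = 4) and -2.56 ± 0.746 in mESCs (SD, n = 3), a difference of 0.13 (exact permutation test, two-sided, p = 0.714), with the wider spread in mESCs. Over Fgfr1 to Fgfr4, the summed level was 112 to 137 CPM in MEFs and 34.7 to 47.4 CPM in mESCs. Fgfr1 made up 84.3% ± 1.92 of these counts in MEFs and 76.2% ± 7.11 in mESCs (exact permutation p = 0.0857). Fgfr2 made up 13.1% ± 2.36 and 13.5% ± 5.93. Per kb the mean share of Fgfr1 was 83.5% in MEFs and 70.3% in mESCs, and that difference reached the smallest p the exact permutation test allows, 0.0286. Fgfr3 and Fgfr4 together took more of the receptor counts in mESCs: Fgfr3 rose from 2.22% ± 0.768 to 6.47% ± 1.43 and Fgfr4 from 0.378% ± 0.216 to 3.86% ± 2.44 (exact permutation p = 0.0286 for each). Their own levels were low, with 19 to 35 counts of Fgfr3 and 4 to 27 of Fgfr4 in the mESC libraries, and Fgfr3 had nearly the same mean in the cell types, 2.74 CPM in MEFs and 2.73 in mESCs.

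Of the 5 other receptor genes and co-receptors, 2 were tested and 1 passed, beside the 47.9% of all genes. Fgfrl1, a receptor-like protein without the kinase, was lower in mESCs, with 131, 110, 116 and 93 counts in MEFs against 53, 27 and 29 (log2 fold change -1.82, standard error 0.317, edgeR adjusted p = 0.000766). Klb, the co-receptor of endocrine FGFs, had too few counts to test, with 1 to 4 in MEFs and 18, 13 and 3 in mESCs.

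Spry2, a Sprouty protein that blocks the signal between receptor and RAS and is itself induced by ERK, was the most abundant of the 3 feedback genes, in counts and per kb of exon, and spread widely within each cell type. It had 4149, 2249, 1547 and 742 counts in MEF a to d, or 398, 343, 185 and 118 CPM, and 2541, 3174 and 1118 in mESC a to c, or 275, 361 and 132 CPM. The highest library was 3.37 times the lowest in MEFs and 2.73 times in mESCs, and the ranges of the cell types lay over each other. Fitted over all libraries, the log2 fold change was -0.029 with a standard error of 0.415 (edgeR adjusted p = 0.961). It turned to 0.24 without MEF a, to 0.12 without MEF b, to 0.28 without mESC c and to 0.26 without TMM scaling, and was -0.36 without mESC b, -0.28 without MEF d and -0.17 without MEF c. Spry2 is on chromosome 14 (105891947 to 105896819, minus strand) with no overlapping gene.

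Dusp6, the phosphatase that inactivates ERK in the cytoplasm, followed the same libraries. It had 144, 122, 62.2 and 32.6 CPM in MEF a to d (1500, 803, 519 and 205 counts) and 78.1, 114 and 37.1 CPM in mESC a to c (721, 1007 and 314 counts). The highest library was 4.41 times the lowest in MEFs and 3.09 times in mESCs, and again the cell types overlapped. Between the cell types the log2 fold change was -0.24 (standard error 0.481, edgeR adjusted p = 0.718), and it was 0.075 without MEF a, 0.084 without mESC c and 0.046 without TMM scaling, but -0.65 without mESC b, -0.52 without MEF d and -0.39 without MEF c. Among 3927 genes with at least 30 CPM on average in both cell types, the median highest-to-lowest ratio was 1.38 in MEFs and 1.25 in mESCs. Of those genes, 0.815% were as widely spread as Spry2 in both cell types and 0.586% as Dusp6, whereas 53.5% were as widely spread as Fgfr1. Dusp6 lies on chromosome 10 (99263231 to 99267489, plus strand).

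Spry4, another Sprouty protein induced by ERK, had 23.3, 15.7, 9.23 and 6.68 CPM in MEF a to d (243, 103, 77 and 42 counts) and 18.1, 41.6 and 17.2 CPM in mESC a to c (167, 366 and 146 counts). The lowest 2 mESC libraries were above MEF b to d and below MEF a, so the cell types overlapped through MEF a. mESCs minus MEFs gave a log2 fold change of 0.89 (standard error 0.442, edgeR adjusted p = 0.123). It was 1.28 without MEF a (edgeR adjusted p = 0.0347), 1.17 without TMM scaling (edgeR adjusted p = 0.0387) and 0.85 without the filter on low counts (edgeR adjusted p = 0.0147). Without mESC b, its highest mESC library, it was 0.35 (edgeR adjusted p = 0.574). The gene is on chromosome 18.

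Ratios of counts within a library do not depend on the scaling between libraries, and 6 ratios were compared in all. The ratio of Dusp6 to Spry2 was nearly constant: 0.362, 0.357, 0.336 and 0.276 in MEF a to d and 0.284, 0.317 and 0.281 in mESC a to c. Over all 7 libraries the highest was 1.31 times the lowest, although each gene alone varied more widely, by 3.37 times for Spry2 and 4.41 times for Dusp6 among the MEFs. On the log2 scale the cell types differed by -0.17 (exact permutation test, two-sided, p = 0.200). The ratio of Spry4 to Spry2 was instead higher in mESCs, at 0.0657, 0.115 and 0.131 against 0.0458 to 0.0586 in MEFs. Its log2 difference was 0.92, with means of -4.24 ± 0.166 in the 4 MEF and -3.32 ± 0.527 in the 3 mESC libraries (SD) and no overlap (exact permutation p = 0.0286, the smallest possible). Leaving out each library in turn kept this difference between 0.72 and 1.22. The remaining ratios, Fgf5 to Fgf4, Fgf10 to Fgf7 and Fgf2 to Fgf4, differed by -5.45, 7.14 and -10.38 on the log2 scale (exact permutation p = 0.0286 for each). Because Fgf5 and Fgf10 did not separate the cell types, these ratios restate the differences of Fgf4, Fgf7 and Fgf2 and add no further result.

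**Figure D3:**
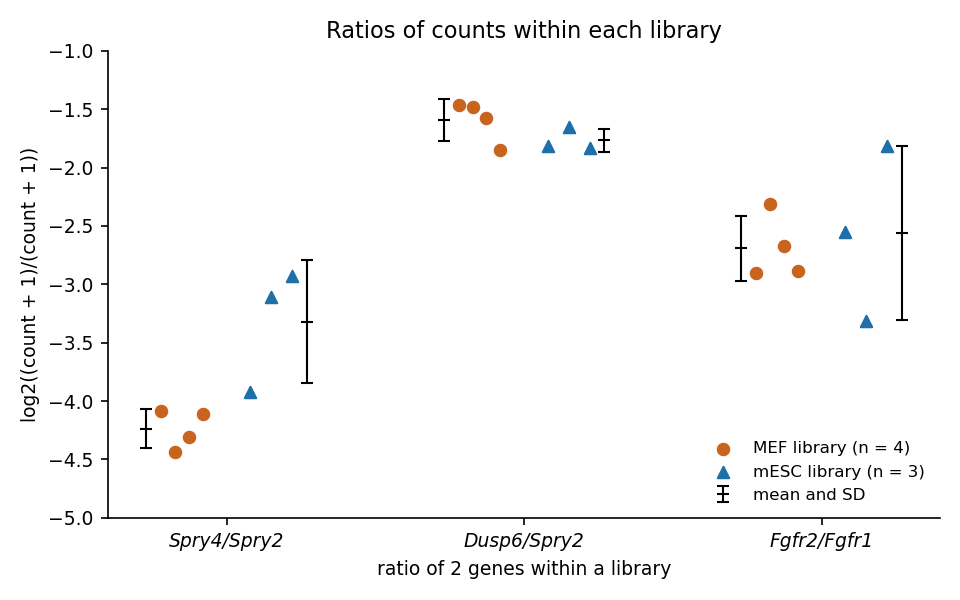
Log2 ratio of the counts of 2 genes within each library, with 1 added to each count. Circles are the 4 MEF libraries and triangles the 3 mESC libraries, with the mean and SD beside them. Spry4/Spry2 separates the cell types by 0.92, whereas Dusp6/Spry2 and Fgfr2/Fgfr1 overlap.

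The MEF libraries with more Spry2, Spry4 and Dusp6, a and b, were those with few counts of Ddx3y, Eif2s3y and Kdm5d. Among the mESC libraries, mESC c, the lowest for Spry2 and Dusp6, was the one with many. The Y-linked gene Uty did not divide the MEFs in this way, with 142 and 80 counts in MEF a and b and 83 and 102 in MEF c and d. Within MEF a, MEF b, mESC a and mESC b alone the log2 fold changes were -0.23 for Spry2, 0.59 for Spry4 and -0.48 for Dusp6, and in MEF c, MEF d and mESC c alone they were -0.21, 1.099 and -0.37. None of these passed (edgeR adjusted p from 0.0723 to 0.603), and the second fit has 1 mESC library, which is assumed to vary like the MEF libraries. The primitive endoderm markers, 6 genes of a cell type that FGF4 induces in the embryo, summed to 85.3, 43.6 and 23.4 CPM in mESC a to c and to between 83.4 and 143 CPM in MEFs. Gata6 and Dab2, which MEFs express as well, carry most of these sums. Of the other 4, Sox17 (51, 41 and 9 counts in mESC a to c), Foxa2 (21, 18 and 4) and Sox7 (35, 20 and 6) were lowest in mESC c, and Gata4 (18, 7 and 19) was highest there. The part of such cells and of the split in Ddx3y, Eif2s3y and Kdm5d in the levels of the feedback genes was not tested.

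**Figure D4:**
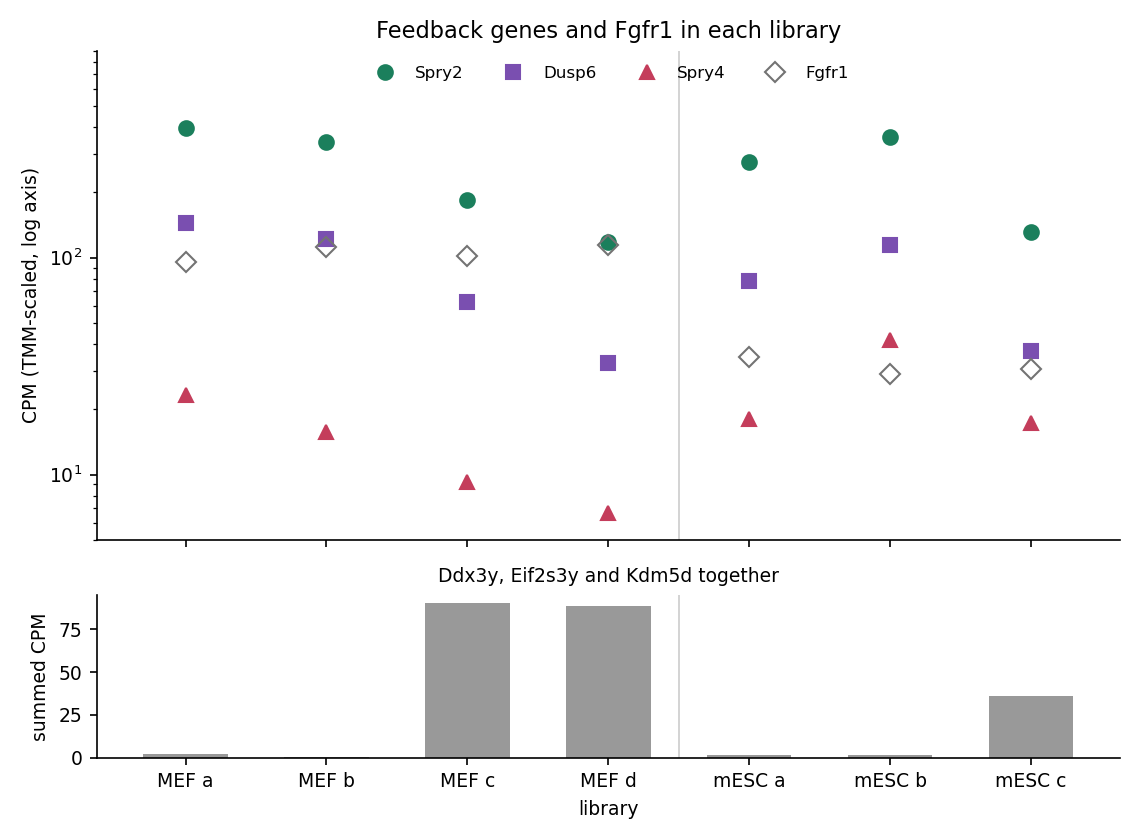
Level of Spry2, Dusp6, Spry4 and, for comparison, Fgfr1 in each library, in CPM on a log axis (upper panel), and the summed CPM of the Y-linked genes Ddx3y, Eif2s3y and Kdm5d (lower panel). The 3 feedback genes are higher in MEF a and b than in MEF c and d, and Fgfr1 is level within each cell type, between 95.4 and 114 CPM in MEFs.

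Of the 17 other feedback inhibitors, 16 were tested, 2 were higher and 6 lower in mESCs, which is near the 47.9% called among all genes, with a median log2 fold change of -0.58. Among the 6, Spry3, Dusp8 and Dusp10 passed the filter on low counts only through the MEF libraries, which favours the direction of their calls. Spred3 and Lrig1 passed the filter in the same way and were not called (edgeR adjusted p = 0.107 and 0.435). Spry1 and Spry3, the remaining Sprouty genes, were both lower. Spry1 had 486, 279, 342 and 249 counts in MEFs and 42, 44 and 56 in mESCs (log2 fold change -2.98, edgeR adjusted p = 1.85e-06), in contrast to Spry2 and Spry4. Spry3 had 24, 35, 15 and 16 counts in MEFs and 1, 2 and 0 in mESCs, a pooled MEF level 25.2 times higher with a counting interval of 8.34 to 124. Errfi1, an inhibitor of the EGF receptor, was lower as well, at 189 ± 69.4 CPM in the 4 MEF libraries and 17.1 ± 4.90 CPM in the 3 mESC libraries (SD). The 2 that were higher were the phosphatases Dusp1 and Dusp9. Dusp1, an immediate early gene, went from 45.4 ± 15.3 to 247 ± 101 CPM (log2 fold change 2.44, edgeR adjusted p = 8.84e-05). Dusp9, an X-linked ERK phosphatase of pluripotent cells, had 15.9, 14.5, 9.95 and 6.20 CPM in MEF a to d and 43.5, 35.1 and 36.9 in mESC a to c (log2 fold change 1.72, edgeR adjusted p = 0.000733). Xist had 73.8, 43.3, 44.8 and 46.4 CPM in MEF a to d and 12.3 to 14.6 in mESCs.

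Genes of heparan sulfate and FGF carriers had mostly lower levels in mESCs. The list holds core proteins, FGF-binding proteins and enzymes that build or modify the chains, including Sulf1 and Sulf2. Its counts therefore do not measure how much FGF is held at the receptor. Of 25 genes 21 were tested, and 15 were lower and 2 higher, beside 25.0% and 22.8% of all tested genes. The median log2 fold change was -1.30 (0.037 over all genes). Of the genes named next, Gpc6 passed the filter on low counts only through the MEF libraries and Fgfbp1 only through the mESC libraries. The largest differences were those of Hs6st2, a 6-O-sulfotransferase, with 102 ± 16.2 CPM in MEFs (SD, n = 4) and 2.26 ± 1.53 in mESCs (SD, n = 3), and of the glypicans Gpc6 and Gpc3. Gpc3 had 704 to 1735 CPM in MEFs and 35.04 to 109 in mESCs (log2 fold change -4.09, edgeR adjusted p = 3.09e-05). Gpc6 had 263 to 414 counts in MEFs and 14, 4 and 30 in mESCs. Higher in mESCs were Fgfbp1, a secreted protein that releases FGFs from the matrix, with 250, 129 and 153 counts against 9, 14, 18 and 6, and Hs6st1, another 6-O-sulfotransferase, with 116, 101 and 68 against 18, 7, 48 and 25. The call of Hs6st1 (log2 fold change 1.77, edgeR adjusted p = 0.0148) was lost without mESC a (1.63, edgeR adjusted p = 0.0531) and in MEF c, MEF d and mESC c alone (0.70, edgeR adjusted p = 0.414). The core protein gene Sdc4 had 150 to 278 CPM in MEFs and 191 to 446 in mESCs and did not pass (edgeR adjusted p = 0.0744).

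Between receptor and ERK, 23 genes for adaptors and the RAS-ERK cascade were each tested. In mESCs 3 were higher and 6 lower, beside 22.8% and 25.0% of all tested genes, with a median log2 fold change of -0.28. The 3 were Gab1, a docking protein, with 148 to 193 counts in MEFs and 606, 668 and 627 in mESCs (log2 fold change 1.74, edgeR adjusted p = 1.51e-05), Frs3, the second FRS adaptor (0.928 and 5.25 CPM on average), and the scaffold Ksr1 (2.49 and 6.22 CPM). Frs3 passed the filter on low counts only through the mESC libraries. Ksr1 (log2 fold change 1.31, edgeR adjusted p = 0.0229) lost its call without mESC a (1.21), without mESC b (1.09) and in MEF c, MEF d and mESC c alone (0.35), with edgeR adjusted p from 0.0782 to 0.801. Frs2 itself, the adaptor of the FGF receptors, had 20.3 ± 6.88 CPM in MEFs and 11.4 ± 2.77 in mESCs and did not pass (edgeR adjusted p = 0.0577). The phosphatase Ptpn11, or SHP2, which couples FRS2 to RAS, was lower, from 83.4 ± 15.9 to 30.02 ± 4.03 CPM (log2 fold change -1.47, edgeR adjusted p = 0.000127). Map2k2 and Hras were lower too, with log2 fold changes of -0.98 and -0.96. Mapk3, a kinase at the end of the cascade, did not pass, with a log2 fold change of -0.54 and a standard error of 0.285.

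The transcription factors and early genes that ERK acts on moved in both directions. Of 17 such genes 16 were tested, 4 were higher and 9 lower in mESCs, beside 22.8% and 25.0% of all tested genes, with a median log2 fold change of -1.0. Fos, Etv5, Etv4 and Ier2 were higher. Etv5, an ETS factor induced by FGF, had 10.9, 17.4, 14.6 and 7.95 CPM in MEFs and 37.2, 92.6 and 27.8 in mESCs (log2 fold change 2.05, edgeR adjusted p = 0.00177), and mESC b was its highest library, as for Spry2, Spry4 and Dusp6. Etv4, its relative, had 18.5, 16.5, 3.60 and 8.43 CPM in MEFs and 28.6, 23.6 and 29.0 in mESCs. Its call (log2 fold change 1.2, edgeR adjusted p = 0.0435) was lost without MEF d or without any 1 of the mESC libraries, with log2 fold changes from 1.07 to 1.29. That range covers only single libraries left out. The Etv4 levels of the cell types lay closer in MEF a, MEF b, mESC a and mESC b. In those libraries alone, 3 genes of the list were higher instead of 4. Fos went the opposite way to Spry2 among the MEF libraries, with 34.6 and 31.1 CPM in a and b and 83.9 and 80.8 in c and d, and had 495, 409 and 366 in mESCs (log2 fold change 2.88, edgeR adjusted p = 5.80e-05). Ets1, Myc and Elk3 were the lowest of the list relative to MEFs, with log2 fold changes of -4.01, -2.85 and -2.82. Egr1, an immediate early target of ERK, had 217 to 371 CPM in MEFs and 197 to 254 in mESCs and did not pass (edgeR adjusted p = 0.105).

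**Figure D5:**
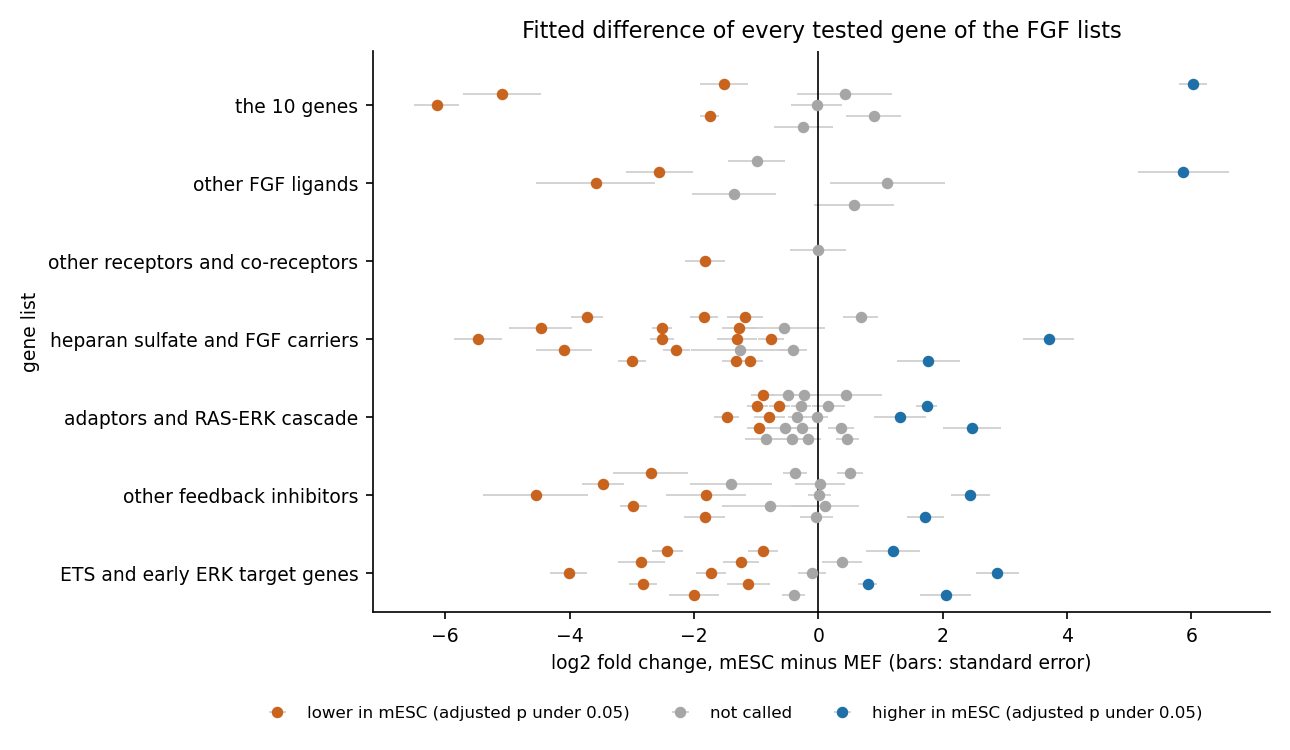
Fitted log2 fold change (mESC minus MEF, bars are standard errors) of each tested gene among the 10 genes and in 6 further lists of the FGF pathway. Blue points are higher in mESCs, orange points lower and grey points not called. Ligands reach both ends of the axis, from -6.14 to 6.03, while the adaptors and RAS-ERK genes stay between -1.47 and 2.47.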

How the data were processed

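RNA-seq gene counts of 4 MEF and 3 mESC libraries were used. Per the labels, libraries were primed at the poly(A) tail with a molecular identifier per read. The authors aligned reads to mm10 (GRCm38) with STAR (2.4.2a per the labels, another version in the methods), collapsed identifiers with Je, counted uniquely mapped exonic reads with featureCounts and deposited whole-number counts without normalization. The annotation release and strand setting are not given in the sources used here, so reads of genes on opposite strands cannot be told apart. Column names give the cell type but match no single sample, so libraries carry letters, and 0 sample columns were unused. Totals ran from 6528643 to 11441278 counts, and 26 rows with date-like symbols (0.249% of counts) stayed in them.

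Differences were fitted with edgeR 4.0.16 (limma 3.58.1, R 4.3.3) on the whole table: TMM, filterByExpr, quasi-likelihood test, Benjamini-Hochberg over 16580 genes, threshold 0.05. Standard errors are the log2 fold change divided by the root of F. Single levels (log2CPM, prior count 2), shares and 6 ratios (pseudocount 1) were compared by exact two-sided permutation over 35 assignments. Intervals of pooled ratios are exact 95% ones and, like the floor of 3 counts, cover counting error only. The code was tested on simulated data. Alternatives were DESeq2 1.42.0, library size only, DESeq2 size factors, at least 1 count or at least 10 counts in place of the filter, prior count 0.5, pseudocount 0.5, counts per kb and leaving out each library.

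The 10 genes and the 6 lists were chosen with earlier results of these data known. Named beside the 10 are, from each list, up to 3 called genes at either end of the fold changes whose cell types do not overlap, members of counts of 5 or fewer, Dusp9 and overlapping genes. Fgf8, Klb, Sdc4, Frs2, Mapk3 and Egr1 were chosen after their values were seen. Coordinates are from GENCODE M21 and promoters from RefSeq GRCm38.p6, with none matched for Fgfr1 and Spry4. The 250-base windows of Fgf5, Fgf2, Fgf10 and Fgfr2 were searched but are not printed. Some genes of the lists are not reported here by name.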

Additional observations from a re-analysis of the deposited data

How the results depend on the processing

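Fgf4, Fgf2, Fgf7 and Fgfr1 kept direction and call under each of the 14 other fits, with log2 fold changes of 5.91 to 6.31, -5.32 to -4.82, -6.82 to -5.81 and -1.83 to -1.47. Fgfr2 (-2.02 to -0.87) lost its call only in MEF c, MEF d and mESC c alone (-0.87), a fit that, like that of the other 4 libraries, was chosen after seeing the data. Spry4 was called at 1.17 with library size only, 0.85 with no filter and 1.28 without MEF a, which made 2 of the 10 genes higher in each. Uncalled differences changed sign: Fgf10 to -0.080 in MEF c, MEF d and mESC c alone, Spry2 to 0.26 and Dusp6 to 0.046 (0.12 on log2CPM) with library size only. Leaving out each library gave -0.0048 to 0.75 for Fgf10, -0.36 to 0.28 for Spry2, 0.35 to 1.28 for Spry4 and -0.65 to 0.084 for Dusp6. The Fgf5/Fgf4 ratio was -5.30 with a pseudocount of 0.5 and then missed the threshold. Per kb, the receptor share of Fgfr1 differed by -13.2 points and passed, and that of Fgfr2 by -0.588. The causes of these changes were not tested. Counts in the lists also moved. The other ligands had 2 higher with no filter, and 2 higher and 0 lower in MEF a, MEF b, mESC a and mESC b alone, where 1 other receptor was higher. Carriers had 1 higher in MEF c, MEF d and mESC c alone, and the RAS-ERK list 5 higher with library size only. Over single libraries left out, other ligands had 1 to 2 higher and 1 to 4 lower, other receptors 0 to 1 higher, carriers 1 to 3 higher and the 10 genes 1 to 2 higher. For 26 further named genes, 349 of 360 values kept their call and 11 lost it, with 0 changes of sign. No paired analysis was possible because the count columns carry no sample numbers of the labels. Few counts limit Fgf5, Fgf2 and Fgf7 in mESCs and Fgf4 in MEFs.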
